A study of Mus musculus with 3 samples.

Results

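The Rbfox family consists of Rbfox1, Rbfox2 and Rbfox3, and the data list clusters from crosslinking and pull-down of RBFOX2 protein in mouse hepatocytes. A cluster was assigned to a gene when it lay on the gene's strand and its midpoint fell inside the span that GENCODE M21 gives the gene on GRCm38. Of 87021 clusters in the list, 68 were assigned to the family, with 61 in Rbfox2, 5 in Rbfox1 and 2 in Rbfox3. All 3 genes therefore held at least 1 cluster, as did 41.8% of protein-coding genes.

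Clusters came from enhanced individual-nucleotide-resolution crosslinking and immunoprecipitation (eiCLIP), in which reverse transcription stops at the crosslinked base, so that the start of a cDNA marks the contact between protein and RNA. Primary hepatocytes were taken from the livers of C57BL6/J mice on control diet, plated, left overnight and crosslinked with UV light at 150 mJ/cm2, and RBFOX2 was pulled down with an antibody to RBM9, another name of Rbfox2. The 3 libraries form a single group without a treated or mutant arm, and the labels give 3 livers and 3 pellets for each, so animals were pooled, although the study's methods give a different number of mice for each culture. The authors also pooled the libraries before clusters were called. The count of a cluster, taken here as its number of cDNA starts, is therefore a total over the libraries, no spread between replicates can be given and no test between groups was made. Intervals below are 95% intervals for counting error only. Markers of hepatocytes such as Alb, Apob and Cps1 carried clusters in 8 of 8 genes, against 41.8% of protein-coding genes. Their counts summed to 13203, of which Alb alone gave 8110, and the lowest sum was 20, in Serpina1c. Between 0 and 1 of 5 markers carried clusters for Kupffer cells, endothelial cells, stellate cells, cholangiocytes and neurons. The highest summed count of a single gene among these was 150, in the stellate cell marker Reln.

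RBFOX proteins are splicing factors with an RNA recognition motif (RRM) that binds the sequence (U)GCAUG, and their known targets include their own pre-mRNAs. In general, binding downstream of an alternative exon is associated with inclusion of the exon and binding upstream with skipping. The coding exon that holds most of RNP1, the conserved core of the RRM, is called the RRM exon here, although other exons encode further parts of the RRM. Skipping of the RRM exon is known to give a protein with impaired RNA binding. Rbfox1 is best known from neurons and muscle and Rbfox3, which encodes the neuronal antigen NeuN, from neurons, whereas Rbfox2 is used in many tissues.

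The RRM exons of the family are shown because the RRM exon of Rbfox2 is the coding exon in which a cluster was found. They are the exons of 93 nt that hold 21 of the 24 bases of RNP1, the conserved core of the RRM, and the sequences were read from the annotated transcripts. In the Rbfox2 sequence, capitals mark the crosslinked bases, positions 20 to 22 counted from the 5′ end of the exon. In the sequences of Rbfox1 and Rbfox3, capitals mark the bases that differ from Rbfox2.
Rbfox2 RRM exon, chr15:77105577-77105669, minus strand: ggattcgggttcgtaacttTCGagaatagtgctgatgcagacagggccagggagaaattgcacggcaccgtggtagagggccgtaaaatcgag
Rbfox1 RRM exon, chr16:7292185-7292277, plus strand: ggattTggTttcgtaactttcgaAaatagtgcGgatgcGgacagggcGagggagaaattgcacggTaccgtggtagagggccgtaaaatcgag
Rbfox3 RRM exon, chr11:118502842-118502934, minus strand: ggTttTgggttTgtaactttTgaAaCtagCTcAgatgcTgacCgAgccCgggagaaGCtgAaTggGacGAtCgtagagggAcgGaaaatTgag
The RRM exon of Rbfox1 differed from that of Rbfox2 at 7 bases, an identity of 92.5%, and that of Rbfox3 at 24 bases, an identity of 74.2%. GCATG, searched on the transcript strand, was in none of the 3 exons and was in 7.41% of the 1390 internal exons of that length in protein-coding transcripts. GCACG, a weaker binding motif of the family, was in the Rbfox2 and Rbfox1 exons and in 3.67% of exons of that length. In Rbfox2 it began at base 60 of the exon, downstream of the crosslinked bases. All 3 exons are a multiple of 3 nt long, so skipping keeps the reading frame. No annotated coding transcript of Rbfox1 skips its RRM exon, and Rbfox3-202 skips that of Rbfox3.

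The 40-nt exon lies in the part of the gene that encodes the C-terminal domain of the protein. It is shown because the highest and the third-highest cluster of Rbfox2 lay in the intron before it. Capitals again mark the bases that differ from Rbfox2.
Rbfox2 40-nt exon, chr15:77094451-77094490, minus strand: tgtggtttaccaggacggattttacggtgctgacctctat
Rbfox1 40-nt exon, chr16:7363865-7363904, plus strand: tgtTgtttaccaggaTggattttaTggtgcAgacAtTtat
Rbfox3 40-nt exon, chr11:118496351-118496390, minus strand: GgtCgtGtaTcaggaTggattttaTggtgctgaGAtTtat
Identity to the Rbfox2 exon was 85.0% for Rbfox1 and 77.5% for Rbfox3. Another short exon of 43 nt follows in Rbfox2, chr15:77091812-77091854, and in Rbfox1, chr16:7369801-7369843. Of its bases, 16 differed between these genes, an identity of 62.8%. Neither length is a multiple of 3, and both leave a remainder of 1, so that the use of one in place of the other keeps the reading frame. The 2 coding transcripts of Rbfox2 that include the 43-nt exon, Rbfox2-206 and Rbfox2-207, skip the 40-nt exon. GCATG was in none of these 40-nt and 43-nt exons, against 3.86% of 207 internal exons of 40 nt and 4.86% of 350 of 43 nt.

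Clusters in Rbfox2 far outnumbered those in the other two genes, and almost all lay on the coding strand. Rbfox2 spans 228 kb on the minus strand of chromosome 15 and held 61 clusters on that strand, or 268 clusters per Mb (205 to 344, exact Poisson interval). Its opposite strand held 1 cluster of 1 nt with a count of 14, or 4.39 per Mb (0.111 to 24.4). These intervals do not overlap. All protein-coding genes together held 68.2 clusters per Mb on their own strand and 5.30 on the opposite strand.

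Rbfox1 spans 1526 kb on the plus strand of chromosome 16 and held 5 clusters on its strand, or 3.28 per Mb (1.06 to 7.65). Its opposite strand held 4, or 2.62 per Mb (0.714 to 6.71). Counting only clusters at or above the median count of the list, 17, the numbers were 1 on its strand and 4 on the opposite strand. Rbfox3 spans 422 kb on the minus strand of chromosome 11, with 2 clusters on its strand, or 4.74 per Mb (0.574 to 17.1), and 1 on the opposite strand, or 2.37 per Mb (0.0600 to 13.2). For both genes the intervals of the strands overlapped. The upper bound for the coding strand was below the 68.2 clusters per Mb of all protein-coding genes. It was also below the 53.1 of protein-coding genes with spans of 150 to 350 kb, but both genes are longer than that class. Genes of their own length were not compared. The number of clusters of a gene depends on how much of its RNA the cells hold as well as on how often RBFOX2 binds it, and these cannot be told apart in these data.

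**Figure D1:**
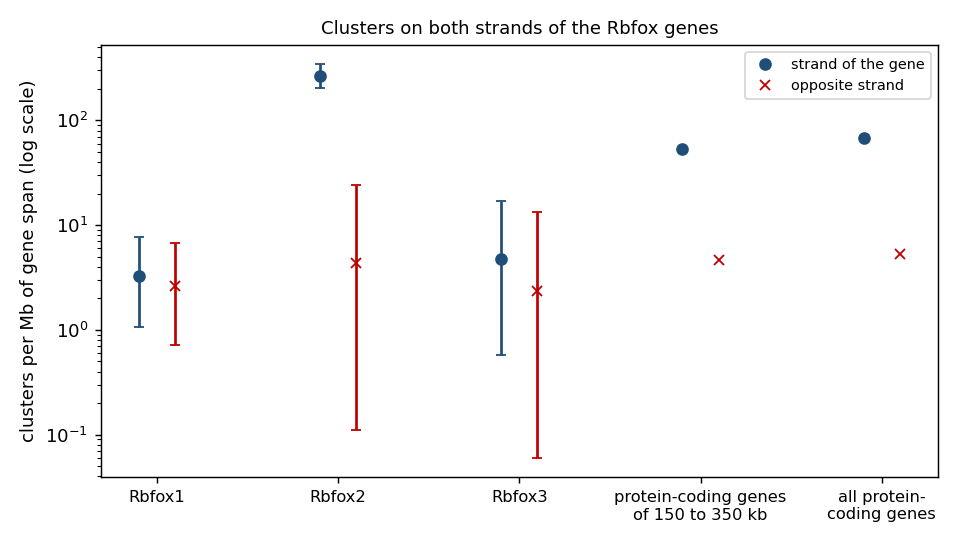
Clusters per Mb of gene span (log axis) on the strand of the gene (filled circles) and on the opposite strand (crosses), with exact Poisson 95% intervals for the Rbfox genes. Rbfox2 stands at 268 per Mb against 4.39 on its opposite strand, whereas the intervals of both strands overlap for Rbfox1 and for Rbfox3.

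Every cluster of Rbfox1 lay in an intron and far from annotated exons. The highest, with a count of 28, was chr16:6177843-6177849, 4175 nt downstream of an exon of 63 nt. The clusters at chr16:6869514 and chr16:7383554-7383557 had counts of 16 each, at distances of 60265 and 7584 nt from the nearest exon. The clusters at chr16:7254464 and chr16:6938666-6938673 had counts of 14 and 13 and lay 22560 and 129417 nt away. On the opposite strand of Rbfox1, counts were 49, 25, 20 and 17, so the highest value in the span was not on the coding strand.

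In Rbfox3, the cluster at chr11:118594695 had a count of 29 and the cluster at chr11:118706494-118706496 a count of 23. They lay 15463 and 35740 nt from the nearest exon. The cluster on the opposite strand had a count of 13. None of the 7 clusters in Rbfox1 and Rbfox3 fell within 1000 nt of an annotated exon. The RRM exon of Rbfox1 was 37.7 kb from the nearest cluster and that of Rbfox3 91.8 kb.

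The clusters of Rbfox1 and Rbfox3 were also narrow. Their widths were 1 to 8 nt, and 7 of 7 were at most 8 nt wide. The clusters of Rbfox2 were 1 to 166 nt wide, the median being 29 nt, and 14 of 61 clusters were at most 8 nt wide. Over the whole list, 29.8% of clusters on the strand of an annotated gene were that narrow, against 70.8% of those that lay only opposite a gene and 68.2% of those with no gene on either strand. The clusters of Rbfox1 and Rbfox3 were thus narrower than most clusters on the strand of a gene. Whether these 7 clusters arise from RBFOX2 bound to Rbfox1 and Rbfox3 RNA was not tested.

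**Figure D2:**
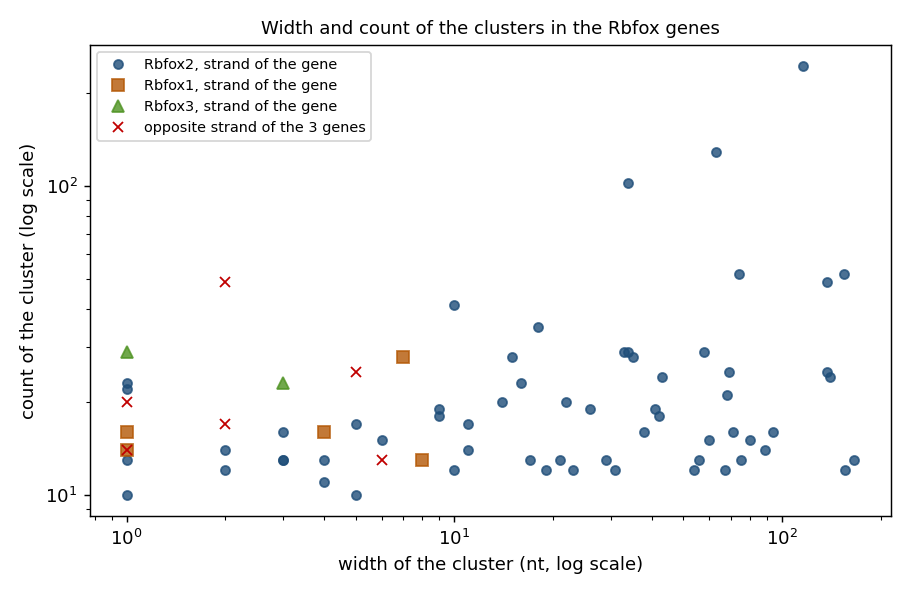
Width (x axis, nt, log scale) and count (y axis, log scale) of each cluster in the 3 Rbfox genes, by gene, with those on the opposite strand as crosses. The clusters of Rbfox1 and Rbfox3 and those on the opposite strand are at most 8 nt wide, and the 3 clusters with counts over 100 are all in Rbfox2.

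Within Rbfox2, clusters had counts from 10, the lowest value in the list, to 244, with a median of 16, and summed to 1609. The 3 highest, with counts of 244, 129 and 102, made up 29.5% of the sum, and the next highest had 52. The remaining 58 summed to 1134. A count of at least 39, the top 10% of the list, was reached by 7 of 61 clusters (11.5%, Wilson interval 5.67 to 21.8), against 10.2% of all clusters and 8.39% of intronic clusters in protein-coding genes. At least the median count of the list, 17, was reached by 30 of 61 (49.2%), against 51.7% of all clusters. The interval of the first share includes both background values. Rbfox2 ranked 117th by number of clusters and 157th by summed count among 9185 protein-coding genes with a cluster. Per kb of span, its count of 7.06 ranked 1949th. Among 1037 genes with spans of 150 to 350 kb, 3.76% had at least as many clusters.

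Of the 61 clusters, 58 lay in introns (95.1%, 86.5 to 98.3), against 69.4% of clusters in protein-coding genes. Annotated exons make up 3.57% of the span and introns the rest, so that per kb exons held 0.369 clusters and introns 0.264. The exonic clusters were 1 in the coding sequence, at the RRM exon, 1 in the 3′ UTR, chr15:77080121-77080187 with a count of 12, and 1 in the 5′ UTR.

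Introns of Rbfox2 differed widely in their clusters. They are numbered by Rbfox2-204, the coding transcript with most exons (14). Introns 5 and 6 flank the RRM exon, which is exon 6, and introns 10 and 11 flank the 40-nt exon, which is exon 11. These 4 introns make up 9.79% of the span and held 33 of 61 clusters (54.1%) and 67.7% of the summed count. Not all of these clusters lay near the 2 exons. Within 1000 nt, the RRM exon had 8 clusters, 1 of them in the exon, and the 40-nt exon had 7. Intron 11 also contains the 43-nt exon, which Rbfox2-204 skips. The remaining 90.2% of the span held 28 clusters with a sum of 519.

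Intron 10, of 3.45 kb, held 12 clusters with a summed count of 513, or 3.48 clusters per kb (1.80 to 6.08). Among 109587 introns of 1 to 10 kb in protein-coding transcripts, 99.7% had fewer per kb, and 0.34% had at least 10 clusters. Intron 6, of 2.64 kb, held 6 clusters with a sum of 261, or 2.28 per kb (0.835 to 4.95), more than 99.4% of those introns. Intron 5 held 8 clusters (sum 178) in 7.94 kb and intron 11 held 7 (sum 138) in 8.30 kb, more per kb than 98.1% and 97.2%. Introns 3 and 13 held 1 cluster each, both with a count of 12. Because intron 13 is short, this gave it 0.729 clusters per kb (more than 96.4% of those introns), close to intron 11 at 0.844, but on a single cluster. No cluster was listed in introns 4, 7, 8, 9 and 12. The list holds only clusters with a count of 10 or more, so an intron without one may still have been bound. Of all introns of 1 to 10 kb, 13.3% held a cluster.

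**Figure D3:**
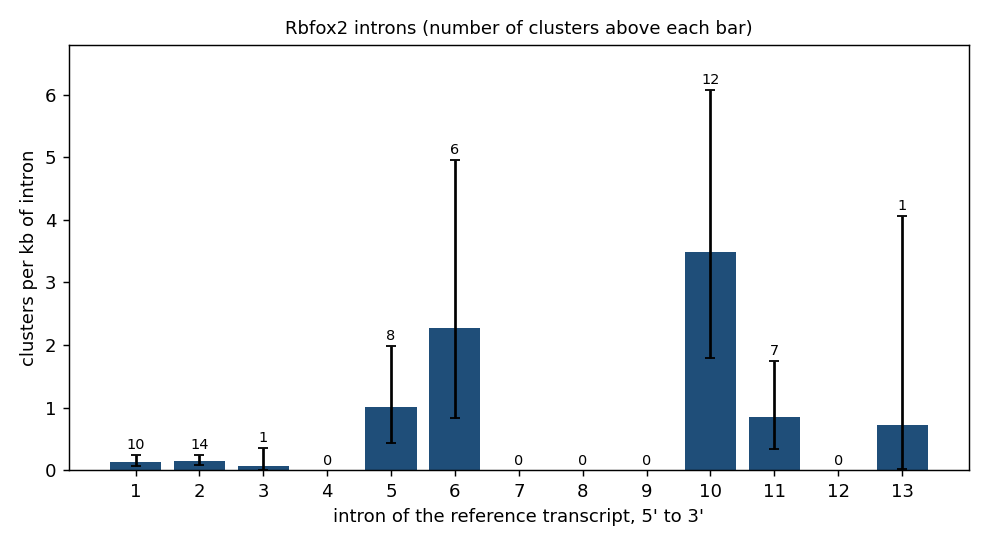
Clusters per kb (bars) in each of the 13 introns of Rbfox2-204, the reference transcript, from 5′ to 3′, with exact Poisson 95% intervals and the number of clusters above each bar. Introns 5, 6, 10 and 11, which flank the RRM exon and the 40-nt exon, hold 33 of 61 clusters, and introns 4, 7, 8, 9 and 12 hold none.

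Around the RRM exon, which 8 annotated coding transcripts include and Rbfox2-207 and Rbfox2-208 skip, clusters lay on both sides and in the exon. The cluster in the exon, chr15:77105648-77105650, had a count of 13. Upstream, a cluster with a count of 11 was directly adjacent to the 3′ splice site, with 0 bases between them, and others lay 61 nt (count 13) and 318 nt (count 19) away. Downstream, counts were higher, at 41, 35 and 17, at distances of 16, 135 and 222 nt from the 5′ splice site, with a further cluster of 23 at 769 nt. The summed count within 500 nt was thus 43 upstream and 93 downstream.

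In total 7 clusters lay within 500 nt of the RRM exon, each of them at most 18 nt wide. At most 8 nt wide were 2 of 3 upstream, 1 of 1 in the exon and 1 of 3 downstream, against 14 of 61 in the gene. Counts of 11, 13 and 13 among the 7 were near 10, the lowest value in the list. Among 180027 internal exons of protein-coding genes, 13.9% had at least 1 cluster within that distance, 1.4% had at least 3 and 0.157% had at least 7. Among 15868 of these that a protein-coding transcript skips, 0.504% had at least 7. Neighbouring clusters were counted separately however close they lay, so these numbers depend on how a dense stretch was split. Merging clusters within 200 nt was run for whole genes only, where it left 50 of the 61 in Rbfox2, and not for single exons. The second-highest cluster of the gene, with a count of 129 at chr15:77104060-77104122, lay farther into intron 6, 1120 nt upstream of exon 7. In intron 5, a cluster with a count of 49 lay 1222 nt upstream of the RRM exon and one with a count of 29 lay 3609 nt downstream of exon 5.

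Around the 40-nt exon, which 4 coding transcripts include and 4 skip, clusters were almost entirely upstream. Within 1000 nt, 6 upstream clusters had a summed count of 419 and 1 downstream cluster, 64 nt from the exon, a count of 12. The upstream clusters had counts of 102, 10, 244, 13, 28 and 22 at distances of 20, 469, 521, 684, 699 and 844 nt, so 26.0% of the summed count of Rbfox2 lay in that stretch of 1 kb. Within 500 nt there were 3 clusters, a number reached by 2.74% of cassette exons. Both exons thus had clusters on each side, but counts were higher downstream of the RRM exon and higher upstream of the 40-nt exon.

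**Figure D4:**
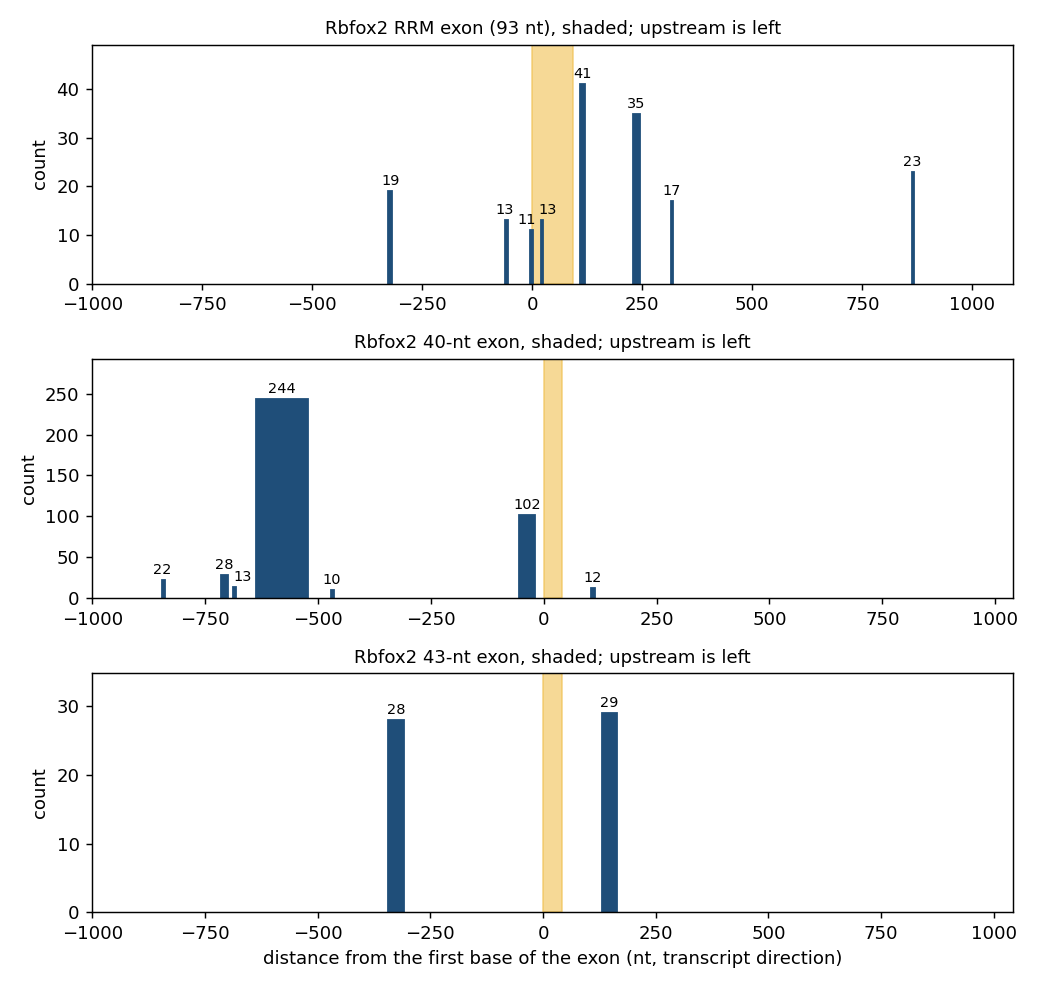
Clusters within 1000 nt of the RRM exon, the 40-nt exon and the 43-nt exon of Rbfox2, by distance from the first base of the exon in transcript direction (x axis, nt) and count (y axis, printed over each bar). Bars span the cluster, the narrowest widened to be visible, and the exon is shaded. Counts within 1000 nt sum to 43 upstream and 116 downstream of the RRM exon, and to 419 upstream and 12 downstream of the 40-nt exon.

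The other alternative exons had fewer clusters. The 43-nt exon, included by 2 coding transcripts and skipped by 6, had a cluster with a count of 29 at 88 nt downstream and one with a count of 28 at 309 nt upstream. Exon 10, of 145 or 133 nt depending on which 3′ splice site is used, had a cluster with a count of 13 at 42 nt downstream and another of 23 at 698 nt. Exon 12, of 89 nt, with which the short transcript Rbfox2-211 begins, had clusters with counts of 13 and 16 at 33 and 985 nt upstream. Exon 13, which that transcript skips, had a cluster of 12 at 435 nt downstream. The same cluster of 12 lay 924 nt downstream of exon 12, and that of 13 lay 538 nt upstream of exon 13. Exons 4 and 5, which encode the start of the RRM and are skipped in Rbfox2-208, had a cluster of 12 at 748 nt upstream and a cluster of 14 at 392 nt downstream, respectively. None of these counts exceeded 29, so the high counts near alternative internal exons were those of the 40-nt exon and, to a lesser degree, the RRM exon. Over the gene, 16 of 58 intronic clusters lay within 500 nt of an internal coding-transcript exon (27.6%, 17.8 to 40.2), against 24.1% of all intronic clusters in protein-coding genes. These flanks make up 5.01% of the intron length of Rbfox2.

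Rbfox2 has several alternative first exons, which give proteins with different N-termini. The proximal group, at 153 kb from the 5′ end of the gene, held the only 5′ UTR cluster, chr15:77153636-77153790, with a width of 155 nt and a count of 52. The first exon of Rbfox2-213, of 97 nt, had a cluster with a count of 14 at 225 nt upstream and a cluster with a count of 15 at 518 nt downstream. At the most distal first exons, the nearest cluster was 1121 nt downstream and had a count of 12. The first exon of the non-coding transcript Rbfox2-215, in intron 11, had a cluster with a count of 20 at 24 nt upstream and another of 20 at 529 nt upstream.

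The stretch of 153 kb upstream of the proximal first exons held 19 clusters with a summed count of 353, or 2.30 per kb, at a median width of 60 nt. Its highest cluster, chr15:77164687-77164760 with a count of 52, and the next, chr15:77188202-77188259 with a count of 29, were 10874 and 15102 nt from the nearest annotated exon. From the proximal first exons to the 3′ end, 74.8 kb held 42 clusters with a sum of 1256, or 16.8 per kb. From the RRM exon to the 3′ end, 26.7 kb held 28 with a sum of 949, or 35.6 per kb, at a median width of 15.5 nt. Within this last stretch, 6 clusters lay in intron 6, 12 in intron 10 and 7 in intron 11, whereas introns 7, 8, 9 and 12 held none and intron 13 and the 3′ UTR held 1 each. The first 2 of these stretches differ in which transcripts cover them, since transcripts from the proximal first exons do not include the upstream one.

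**Figure D5:**
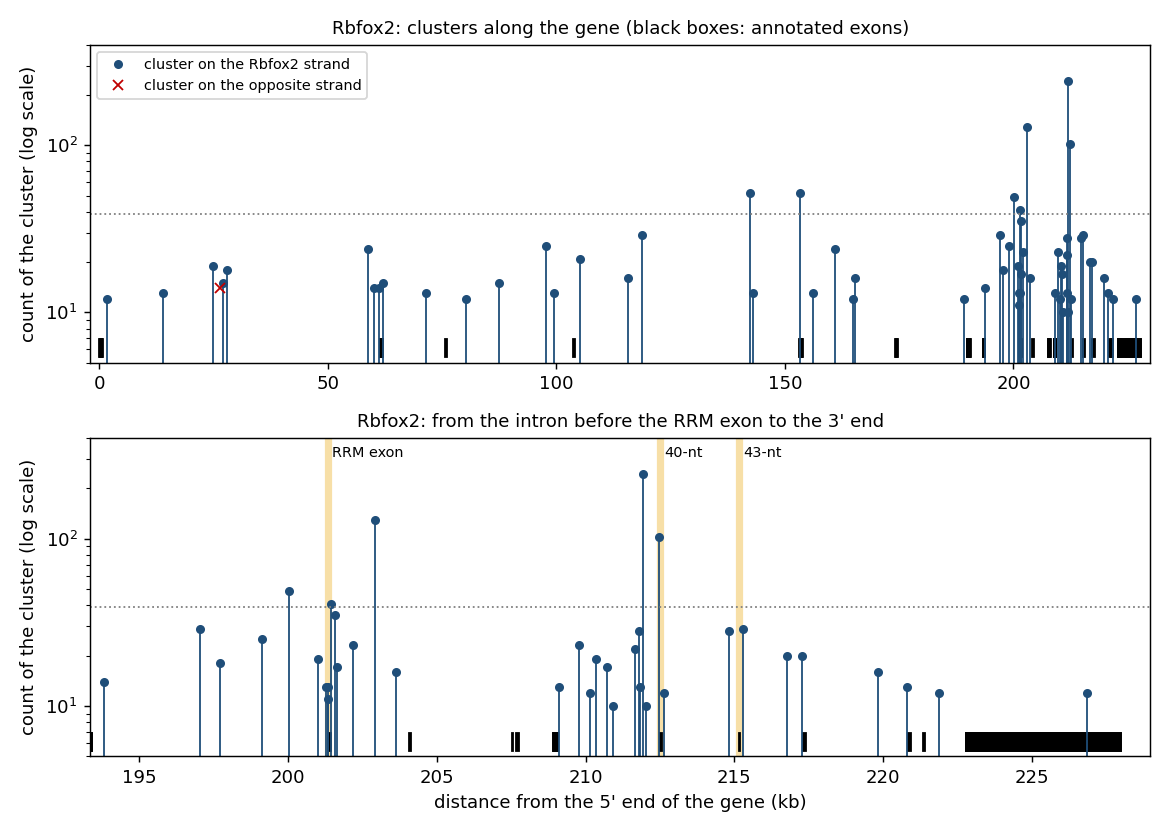
Count of each Rbfox2 cluster (y axis, log scale) by distance from the 5′ end of the gene (x axis, kb), over the whole gene (top) and from the intron before the RRM exon to the 3′ end (bottom, with the RRM, 40-nt and 43-nt exons shaded). Black boxes are annotated exons, the shortest widened to be visible, and the dotted line marks a count of 39, reached by 10.2% of all clusters. From the RRM exon on, 26.7 kb hold 28 clusters, among them the 3 with counts over 100.

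Sequence around the clusters was at hand only where an annotated exon covers it, since intron sequence was not used here. Extended by 50 nt on each side, 2 of the 61 clusters had sequence, 1 in the 3′ UTR and 1 in intron 10 under an exon of the antisense gene 1700109K24Rik. The intronic window, chr15:77096023-77096127 on the minus strand around a cluster of 5 nt with a count of 10, is shown. It is the only cluster window in intron 10 that could be read at this extension.
Window in intron 10: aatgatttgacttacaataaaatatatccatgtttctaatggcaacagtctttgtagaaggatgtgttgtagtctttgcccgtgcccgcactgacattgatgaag
GCATG was in neither window (0 of 2, Wilson interval 0 to 65.8%), against 20.2% of the 19348 windows of the whole list that could be read. Extended by 20 nt, 4 clusters had sequence, and GCATG was in 0 of them. With so few windows, the share in Rbfox2 could not be determined. The clusters of high count at the RRM and 40-nt exons were not among them.

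By span, number of clusters, summed count, intronic share and share of the highest cluster, the genes nearest to Rbfox2 among 825 protein-coding genes with at least 20 clusters were Slc22a23 (58 clusters, summed count 1565), Atxn1 (67 clusters, 1717) and Pdlim5 (64 clusters, 1344). Their distances over these 5 measures, each scaled to its SD, were 0.400, 0.585 and 0.587. Introns held 89.7%, 92.5% and 87.5% of their clusters. The large assembly of splicing regulators (LASR) is a complex of RNA-binding proteins that RBFOX proteins join, and 8 of 8 of its listed genes held clusters, against 41.8% of protein-coding genes, with 1 in Ilf2 to 33 in Hnrnph1. Per kb of span their summed counts were 1.47 to 117 with a median of 9.45, and 7 of the 8 were above the 7.06 of Rbfox2. The LASR genes span 8.83 to 40.6 kb against 228 kb for Rbfox2, and amounts of RNA were not compared. The median over protein-coding genes with a cluster was 2.16. The shares of their clusters in introns ran from 0% in Ilf2 to 84.6% in Hnrnpc, all below the 95.1% of Rbfox2, a gene with a longer span.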

How the data were processed

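The 3 eiCLIP libraries were analysed through 1 deposited cluster list. According to the study's methods, the authors trimmed reads with cutadapt, aligned them end to end to GRCm38 with STAR 2.4.2a, kept unique alignments, collapsed reads of the same position and random barcode, and clustered cDNA starts with Paraclu in iMaps. The deposited counts, whole numbers of at least 10 that sum to 2850863, have no column name and were taken as cDNA starts per cluster from their values and the methods. Input libraries were not used here. Coordinates are 1-based GRCm38 and genes come from GENCODE M21, while the study names VM20. The RRM exon was the exon with most bases of RNP1. A distance counts the bases between the edges of cluster and exon. Named in the text are every cluster of Rbfox1 and Rbfox3, the 10 highest of Rbfox2, those in exons or within 1000 nt of alternative exons, the 3 genes most like Rbfox2 and the LASR genes. Members and lists were chosen with earlier results of these data known. Interval functions were tested on simulated data. Python 3.11.15, pandas 2.3.3, scipy 1.17.1 and matplotlib 3.10.9 were used.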

Additional observations from a re-analysis of the deposited data

How the results depend on the processing

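Cluster numbers were taken as kept within 1.5 times the reported value, and sums and shares within their interval of counting error. By this rule 21 of 31 alternative values were kept, 9 moved and 1 reversed. The kept values include those for motif shares, each 0% of 2 or 4 windows. Their interval of 0 to 65.8% was too wide for this to tell of stability. With clusters at or above the median count of the list, 17, the numbers were 30 in Rbfox2, 1 in Rbfox1 and 2 in Rbfox3, and the reversed value was that of Rbfox1, whose coding strand then held 1 cluster against 4 on the opposite strand, a ratio of 0.25 in place of 1.25. The cause was not tested. No such ratio could be formed for Rbfox2 and Rbfox3, whose opposite strands then held 0. In the top 10% of counts, 7 clusters were left in Rbfox2 and 0 in Rbfox1 and Rbfox3. Without its highest cluster, Rbfox2 summed to 1365. The share of intronic Rbfox2 clusters near an internal exon was 17.2% within 300 nt and 41.4% within 1000 nt, and the number at the 40-nt exon was 7 within 1000 nt. Merging clusters within 200 nt left 50 in Rbfox2. Leaving out a library was not run, since the list holds pooled values. No paired analysis was possible because the libraries form 1 group. The depth of each library is unknown.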

Other observations

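Within 5 kb past the annotated ends, the strand of Rbfox2 held 1 cluster beyond its 3′ end and 0 before its 5′ end, that of Rbfox3 held 0 beyond its 3′ end and 1 before its 5′ end, and that of Rbfox1 held 0 at both. The antisense gene 1700109K24Rik lies on the plus strand opposite the last introns of Rbfox2 and had 0 clusters on its own strand, whereas 16 clusters of Rbfox2 lay opposite it. The genes 4833412C15Rik, Gm49411 and Gm24056 lie inside Rbfox2 on the same strand and also held 0. Rbfox2 clusters at most 8 nt wide numbered 10 of 33 in introns 5, 6, 10 and 11 and 4 of 28 in the rest of the gene, and the median widths of all clusters there were 14 and 57 nt.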
